A study of Rattus norvegicus with 23 samples.

Results

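Genes that carry or tune the signal of the B cell antigen receptor were followed in blood cells of weanling rats, 9 in all: Cd79a, Cd79b, Cd22, Cd72, Blk, Blnk, Btk, Plcg2 and Cr2. A probe was taken when its gene name on the array, read without the ending that marks a predicted gene, was one of these 9 symbols. That gave 9 probes for 8 of the 9 genes, out of 20739 features tested. Cr2 had 2 probes, each other measured gene had 1, and no probe carried the name Cd79a. The rule uses names and no measured value, but the 9 genes were chosen with earlier results of these data known.

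Peripheral blood mononuclear cells (PBMC), the lymphocytes and monocytes of blood, were isolated at weaning, at 21 days of age, from male and female Wistar pups. Control dams ate standard chow freely, and calorie-restricted (CR) dams received 20% fewer calories through lactation. The pups themselves ate freely when they were killed. Each of the 23 arrays compared the RNA of 1 pup, in Cy5, with a pool of all samples, in Cy3, with no dye swap. The arrays held 6 males and 6 females of control dams and 5 males and 6 females of CR dams. In what follows the sex average is the mean of the male and the female difference between CR and control pups. The labels give 11 control dams and 5 CR dams but no litter for a pup, so the CR pups came from at most 5 litters, all pups were treated as independent, and p-values may be too small.

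The antigen receptor of a B cell is a membrane immunoglobulin held by the pair CD79A and CD79B, whose tails are phosphorylated when antigen binds. Src family kinases such as LYN and BLK start this step, SYK and BTK pass it on, and the adaptor BLNK brings BTK to phospholipase C gamma 2, the product of Plcg2, which releases calcium. The coreceptor CR2 lowers the threshold of the receptor, whereas CD22 and CD72 recruit phosphatases that restrain it. In blood most of these genes mark B cells, but Btk, Plcg2 and Blnk are also known in other leukocytes.

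All values are log2 ratios of a pup to the pool after background correction and loess normalization. A difference of -1 is a ratio 2 times lower on this scale, in which the background correction added a constant to both channels. The size of a difference, and its percentage, therefore holds on this scale only. With the scanner software's ratio the male difference was -0.57, not -0.21, for the dim Cr2 and -0.40, not -0.22, for the dim Cd22. For the bright Cd79b it was -0.59, not -0.55. The part of the constant in these moves was not tested. The ratios do not compare 1 gene's level with another's. With no dye swap, a ratio of 0 need not be the level of the pool for every probe. Differences between groups are therefore read, and not the distance of a value from 0. Between 20603 and 24076 probes an array were well above background in Cy5, and all 9 probes were so on 23 of 23 arrays, with none saturated. The 2 arrays that correlated least with the others over all features were CR female replicate 5 (median r of 0.065) and CR male replicate 1 (median r of 0.16). Leaving both out kept all 8 members lower in CR males and in the sex average. PBMC markers were measured for T cells (16 of 18 listed genes), monocytes (13 of 16), natural killer cells (11 of 13) and B cells beyond the members (16 of 26), but so were markers of neutrophils (7 of 12), red cells (8 of 11) and platelets (6 of 8). In RNA of mixed cells, fewer B cells and less RNA of a gene in each B cell cannot be told apart.

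Promoters are shown to place the measured genes beside the sites that B cell transcription factors are known to bind. The RefSeq table of rat promoters (build GRCr8, from 250 bases before to 50 after the annotated start) held 6 of the 9 members: Cd79a, Cd22, Blnk, Btk, Plcg2 and Cr2. On both strands 4 motifs were searched, none overlapping another in these 6: the octamer ATTTGCAT, bound by POU factors such as OCT2; AGGAAGT, of the Ets kind that PU.1 and its relatives bind; the E-box CAGGTG, bound by E2A; and TCCCNNGGG, the core of the site of EBF1. Of all 33469 promoters of this length in the table, 1.78% held the octamer, 8.41% the Ets letters, 18.8% the E-box and 5.91% the EBF1 letters. Of the 6 members, Blnk held the octamer, Cd79a held the Ets letters and the E-box, and Plcg2 and Cr2 held the E-box on the opposite strand. The 4 motifs were settled after the members' promoters had been searched, so these matches are no independent count. The letters of EBF1 were in none of the 6, and Cd22 and Btk held none of the 4 motifs. The 3 measured members with a match are printed 5′ to 3′ on the strand of the gene, with the match in capitals: Blnk (chr1:249770484-249770783, minus strand), Plcg2 (chr19:62455946-62456245, plus strand) and Cr2 (chr13:109244457-109244756, minus strand).
Blnk: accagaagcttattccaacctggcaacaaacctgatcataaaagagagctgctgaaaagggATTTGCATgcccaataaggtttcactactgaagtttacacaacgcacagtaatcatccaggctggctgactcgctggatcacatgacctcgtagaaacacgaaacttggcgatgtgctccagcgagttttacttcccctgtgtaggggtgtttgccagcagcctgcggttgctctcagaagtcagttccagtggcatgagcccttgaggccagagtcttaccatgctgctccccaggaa
Plcg2: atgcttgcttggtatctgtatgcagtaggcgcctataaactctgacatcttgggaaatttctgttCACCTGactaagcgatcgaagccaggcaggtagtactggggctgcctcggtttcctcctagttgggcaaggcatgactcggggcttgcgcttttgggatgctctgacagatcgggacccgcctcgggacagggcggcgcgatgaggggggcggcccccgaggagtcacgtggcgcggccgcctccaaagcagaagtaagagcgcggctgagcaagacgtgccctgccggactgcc
Cr2: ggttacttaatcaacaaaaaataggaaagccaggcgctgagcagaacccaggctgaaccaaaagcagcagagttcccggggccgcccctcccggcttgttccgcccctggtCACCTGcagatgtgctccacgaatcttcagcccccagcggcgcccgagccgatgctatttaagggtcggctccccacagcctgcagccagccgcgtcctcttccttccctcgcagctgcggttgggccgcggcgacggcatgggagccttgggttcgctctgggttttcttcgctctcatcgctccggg
A match to letters is a description of the sequence and shows no binding, and a missing match does not show that a site is absent. Blnk, the 1 member with an octamer, had a log2 difference of -0.099 ± 0.15 (SE) between CR and control pups in the sex average, against -0.43 ± 0.10 for Plcg2 and -0.26 ± 0.088 for Cr2.

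Of the receptor's signalling pair, Cd79b was measured by probe A_43_P15598 (chr10:95703614-95703673 on rn4). In control males its log2 ratio ran from -0.31 to 1.07 (median -0.045), and the 5 CR males were at -0.47, 0.010, -0.17, -0.52 and -0.76. Control replicate 4 was the highest male and CR replicate 5 the lowest, and 3 of 5 CR males lay below every control male, but the groups overlapped. In females the controls ran from -0.049 to 1.11 (median 0.34) and the CR pups from -0.39 to 0.48 (median 0.073); 3 of 6 CR females were below every control and the rest lay among them. The difference, CR minus control, was -0.55 ± 0.23 (SE) in males, or -31.7%, with an unadjusted p of 0.0237, and -0.39 ± 0.22 in females, with an unadjusted p of 0.0848. Neither passed the test after adjustment over all features (adjusted p = 0.653 and 0.995, limma). For the sex average the difference was -0.47 ± 0.16 (adjusted p = 0.588). Without control male replicate 4 the male difference of Cd79b was -0.37. Its female difference was -0.25 without control female replicate 6 and -0.69 under scale normalization.

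Its partner Cd79a had no probe of that name. A probe outside the rule, A_44_P790500, is annotated as similar to the CD79A antigen (chr1:80191345-80191617 on rn4). It was singled out after its annotation was read and is not counted among the members. Control males ran from 0.38 to 1.40 (median 0.59) and the CR males were at 0.35, 0.14, 0.65, 0.081 and -0.31, so that 4 of 5 CR males were below every control male and 1 was not. Females ran from 0.22 to 1.45 (median 0.63) in controls and from -0.087 to 0.86 (median 0.29) in CR pups, with 1 of 6 CR females below every control. The differences of this probe were -0.55 ± 0.22 (SE) in males and -0.31 ± 0.21 in females, with adjusted p = 0.627 and 0.994 over all kept probes. Its r with the mean of the 8 members was 0.78 over the 23 arrays after group means were removed.

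**Figure D1:**
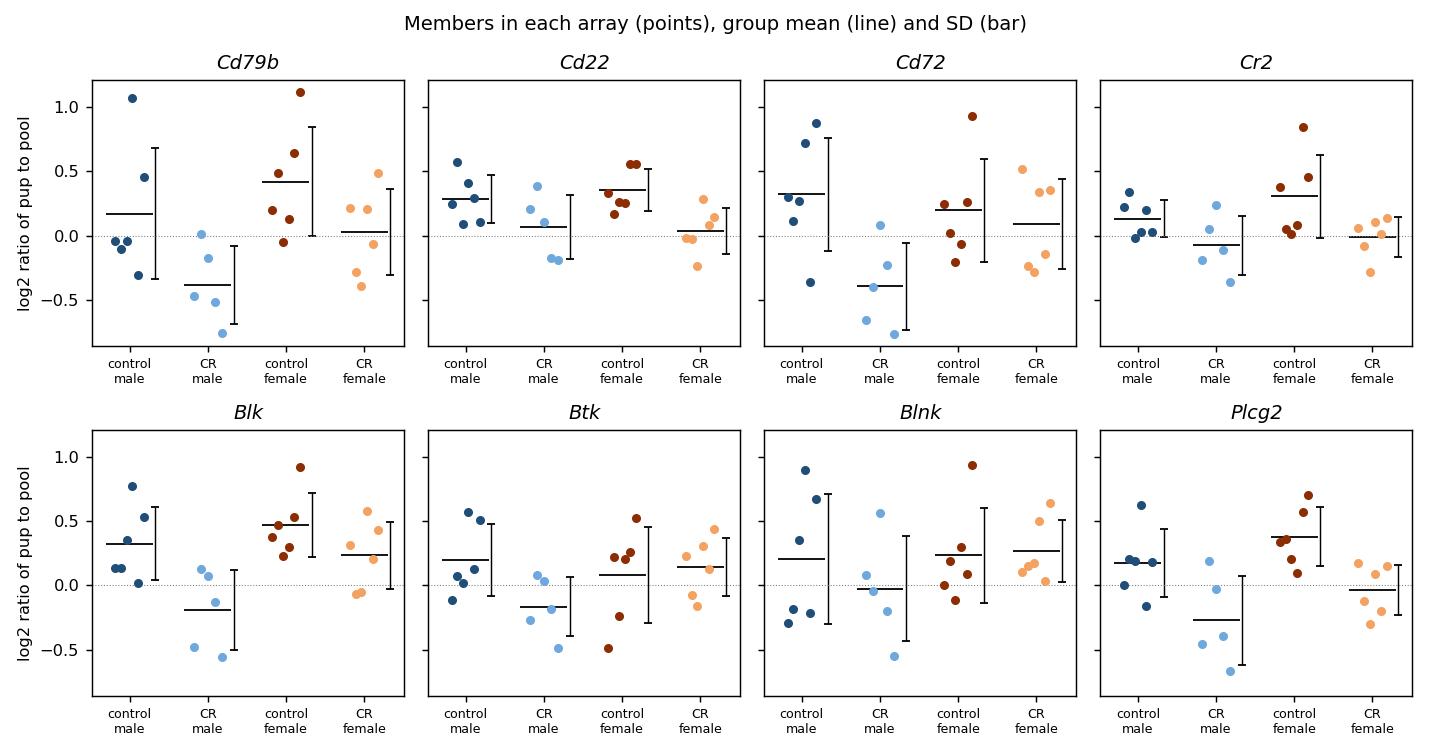
Log2 ratio of each pup to the pool (vertical axis) for the 8 measured members, by group (horizontal axis); points are arrays, lines group means, bars SD. CR males have the lowest mean of the 4 groups for 7 of 8 members, which vary together, a count whose share over all features was not computed. CR and control arrays overlap in both sexes for all 8.

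Among the receptors that tune the signal, Cd22, a sialic acid binding lectin of B cells that inhibits the receptor, was read at a median Cy5 intensity of 231. Probe A_44_P250467 (chr1:85925702-85925761 on rn4) gave values from 0.087 to 0.57 (median 0.27) in control males, and the CR males were at 0.21, 0.38, 0.11, -0.17 and -0.19. In females, controls ran from 0.17 to 0.55 (median 0.29) and CR pups from -0.24 to 0.28 (median 0.031). Below every control of their sex were 5 of 6 CR females and 2 of 5 CR males. The difference was -0.32 ± 0.11 in females (unadjusted p = 0.00708, adjusted p = 0.995, limma) and -0.22 ± 0.11 in males (unadjusted p = 0.0634, adjusted p = 0.711). The sex average was -0.27 ± 0.077, or -16.9%, with an adjusted p of 0.588. The male minus the female difference was 0.097 ± 0.15 (unadjusted p = 0.534, adjusted p = 0.967).

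Cd72, a second inhibitory receptor of B cells, had the largest male difference of the 8 members. Its probe A_44_P466636 (chr5:59923240-59923299 on rn4) read from -0.36 to 0.87 (median 0.29) in control males and -0.65, -0.40, 0.082, -0.23 and -0.76 in the CR males. Control male replicate 5 lay far below the other 5 controls, all of which were above every CR male. In females the controls ran from -0.20 to 0.93 (median 0.13) and the CR pups from -0.28 to 0.52 (median 0.096), with 3 of 6 CR females above the control mean. The difference was -0.71 ± 0.22 in males, or -38.9% (unadjusted p = 0.00342, adjusted p = 0.636, limma), and -0.11 ± 0.21 in females (adjusted p = 0.995). The male difference minus the female difference was -0.60 ± 0.30, with an unadjusted p of 0.0563 and an adjusted p of 0.935, so a difference between the sexes was not established. Without control female replicate 6 the female difference of Cd72 was 0.039.

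Cr2, the complement receptor of mature B cells, was read by 2 probes, of which the brighter one, A_44_P508580 (chr13:111091201-111091260 on rn4), was used. Control males ran from -0.018 to 0.34 (median 0.11), and the CR males were at -0.19, 0.053, 0.24, -0.11 and -0.36. Control females ran from 0.011 to 0.84 (median 0.23) and CR females from -0.28 to 0.13 (median 0.033). In each sex 3 CR pups were below every control and the others lay among the controls. Of these females, CR female replicate 5 was at 0.010, just under the lowest control at 0.011. The difference was -0.21 ± 0.13 in males and -0.31 ± 0.12 in females, and -0.26 ± 0.088 for their mean (adjusted p = 0.762, 0.995 and 0.588, limma). The second probe, A_44_P508573 (chr13:111083314-111083373), gave -0.24 ± 0.13 in males, -0.23 ± 0.12 in females and -0.24 ± 0.087 for the sex average. The 2 probes thus had the same sign in each sex. With the second probe 4 of 5 CR males and 1 of 6 CR females were below every control of their sex. The probe used was read at a median Cy5 intensity of 137. With the scanner software's own ratio its differences were -0.57 in males, -0.89 in females and -0.73 for the sex average, and those of Cd22 were -0.40, -0.62 and -0.51. The male difference of Cr2 was -0.14 without CR male replicate 5, and the female one -0.21 without control female replicate 5.

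Of the kinases, Blk, a Src family kinase found mostly in B cells, was read by probe A_44_P356391 (chr15:42649987-42651073 on rn4, an interval of 1087 bases). Its values ran from 0.019 to 0.77 (median 0.25) in control males, and the CR males were at -0.48, 0.13, 0.072, -0.13 and -0.55. In females the controls ran from 0.23 to 0.92 (median 0.42) and the CR pups from -0.067 to 0.58 (median 0.26). Below every control male were 3 of 5 CR males, and 5 of 6 control males were above every CR male. The male difference was -0.52 ± 0.16, or -30.1%, and had the smallest unadjusted p of the 8 members in males (0.00312), with an adjusted p of 0.636. In females it was -0.23 ± 0.15 (adjusted p = 0.995). Without control female replicate 6 the female difference of Blk was -0.14, and with array quality weights -0.37.

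Btk, a Tec family kinase that B cells need to mature normally, had differences of opposite sign in males and females. Probe A_44_P468879 (chrX:122002453-122003355 on rn4, an interval of 903 bases) gave from -0.12 to 0.57 (median 0.099) in control males and -0.27, 0.080, 0.033, -0.18 and -0.48 in CR males. Control females ran from -0.49 to 0.52 (median 0.21) and CR females from -0.16 to 0.43 (median 0.18). All 5 CR males were below the control male mean, whereas 2 of 6 CR females were below the control female mean. The difference was -0.36 ± 0.16 in males (unadjusted p = 0.0361, adjusted p = 0.679, limma) and 0.064 ± 0.15 in females (adjusted p = 0.995). The male minus the female difference was -0.42 ± 0.22 (unadjusted p = 0.0703, adjusted p = 0.935), and with slide as a block -0.53 (unadjusted p = 0.0290, adjusted p = 0.707). The female value of Btk was -0.062 under scale normalization, -0.12 with array quality weights and -0.050 without control female replicate 1, so its sign is not settled.

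The adaptor Blnk had the smallest difference in the sex average. Probe A_44_P144741 (chr1:246099688-246102499 on rn4, an interval of 2812 bases) ran from -0.29 to 0.89 (median 0.085) in control males, and the CR males were at 0.084, -0.039, 0.57, -0.20 and -0.54. Control females ran from -0.11 to 0.93 (median 0.14) and CR females from 0.037 to 0.64 (median 0.16). The groups lay on top of each other: 1 of 5 CR males and 0 of 6 CR females were below every control of their sex. The differences were -0.23 ± 0.22 in males and 0.034 ± 0.21 in females (adjusted p = 0.854 and 0.997, limma). The 95% interval of its sex average ran from -0.42 to 0.22, and its female value turned to -0.054 with array quality weights. The male difference of Blnk was -0.094 without control male replicate 4, -0.10 without CR male replicate 5, -0.14 without control male replicate 6, -0.13 with the replicate number as a block and -0.38 without CR male replicate 3. Its sex average was -0.030, -0.034 and -0.052 without the first 3 of these arrays, -0.029 without control female replicate 6, -0.15 without control male replicate 1 and -0.17 without CR male replicate 3.

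Plcg2, the phospholipase at the end of this chain, had the smallest unadjusted p of the members for the sex average. Probe A_44_P531647 (chr19:47896153-47896212 on rn4) gave from -0.16 to 0.62 (median 0.18) in control males, and the CR males were at -0.45, 0.19, -0.027, -0.39 and -0.67. In females the controls ran from 0.098 to 0.70 (median 0.35) and the CR pups from -0.30 to 0.17 (median -0.019). CR male replicates 2 and 3 lay among the controls, 3 of 5 CR males were below every control male, and 4 of 6 CR females were below every control female. The differences were -0.44 ± 0.15 in males and -0.41 ± 0.14 in females, with a male minus female difference of -0.028 ± 0.20 (95% interval -0.45 to 0.39). For the sex average the difference was -0.43 ± 0.10, or -25.7%; its unadjusted p of 0.000339 ranked 11 of 20739 features and its adjusted p was 0.498 (limma). On each of the 6 slides the CR female was below the control female for Plcg2, with differences from -0.77 to -0.012, and on 3 of 4 slides the CR male was below the control male.

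**Figure D2:**
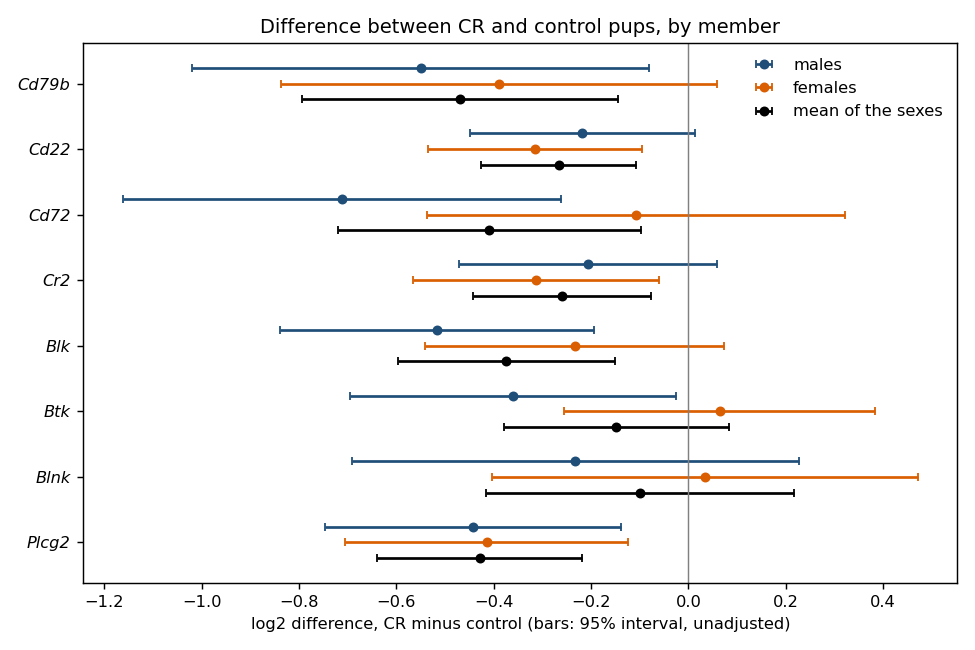
Log2 difference between CR and control pups (horizontal axis) for the 8 members (vertical axis), by sex and for the sex average, with 95% intervals that are not adjusted for the number of features. All 8 male values and 6 of 8 female values are below 0, Btk and Blnk in females being the exceptions.

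No member passed the test in any of the 5 comparisons. limma called 0 of 20739 features (0%) in the male diet comparison, 0 (0%) in the female one, 0 (0%) for the sex average, 0 (0%) for the male minus the female diet difference and 12 (0.0579%) between males and females. At an unadjusted p under 0.05, 5 of 8 members were lower in CR males (Cd79b, Cd72, Blk, Btk and Plcg2), against 4.07% of all features, and 3 of 8 in CR females (Cd22, Plcg2 and Cr2), against 2.66%. For the sex average 6 of 8 were lower at that p, all but Blnk and Btk, against 4.86%. No member was higher at that p, against 3.12% of features in males, 1.99% in females and 2.48% for the sex average. A difference below 0 was found for 8 of 8 members in males (52.7% of all features), 6 of 8 in females (48.4%) and 8 of 8 for the sex average (49.1%). The members' median difference was -0.40 in males, -0.27 in females and -0.32 averaged over both, against -0.0066, 0.0033 and 0.0013 over all features. The members are measured on the same arrays and vary together, so these counts are not 8 separate results. The members were also chosen with earlier results of these data known, so the shares of all features are no independent comparison.

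The number of members lower in males at an unadjusted p under 0.05 was 3 instead of 5 without control male replicate 4 and also without CR male replicate 5. With median centring in place of loess the members' median in males was -0.77, but that scaling also moved the median of all features in males to -0.19 and placed 30.5% of all features at an unadjusted p under 0.05 and lower. With a term for slide the counts (slide block) in the diet comparisons were again 5, 3 and 6, against 4.27%, 2.87% and 4.28% of all features. The smallest adjusted p of a member was then 0.515, 0.939 and 0.656 (limma). CR and control arrays overlapped for all 8 members in each sex. Over all features, groups with no overlap made up 0.4% in males and 0.198% in females.

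Within slides, the CR male was below the control male in 24 of 32 pairs of a member and a slide, and the CR female below the control female in 35 of 48. The members vary together, so these pairs stand for 4 male and 6 female slide comparisons and are not separate results. Their share over all features was not computed. On slide 4, which was singled out after its values were seen and has no test, 6 of 8 members in males and 7 of 8 in females were higher in the CR pup. On slides 2, 3 and 6 together 2 of 24 male differences were above 0, and on the 5 other slides 6 of 40 female differences were. Each slide held 1 pup of a group, apart from slide 1 with 2 control males and no CR male and slide 5 with no control male, so a slide and its pups cannot be told apart.

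Between the sexes, averaged over diets, all 8 members were lower in males, as were 50.7% of all features. It was 7 of 8 without any 1 of 6 arrays: control male replicate 3, CR male replicates 4 and 5, control female replicates 5 and 6, and CR female replicate 4. An unadjusted p under 0.05 was reached by 3 of 8, against 3.74% of features that were lower: Cd79b (-0.33 ± 0.16), Blk (-0.29 ± 0.11) and Plcg2 (-0.22 ± 0.10), with adjusted p = 0.674, 0.662 and 0.673 (limma). That count was 1 with slide as a block, 1 with the authors' deposited value table and 0 with quantile normalization of Cy5 alone. Of all features 4.19%, 3.52% and 2.55% were lower at that p in these settings. It was also 1 without any 1 of 10 single arrays: control male replicates 1 and 5, CR male replicates 1, 4 and 5, control female replicates 5 and 6, and CR female replicates 1, 4 and 6. For the difference between the diet effects of the sexes, the members' values ran from -0.60 (Cd72) to 0.11 (Cr2), with adjusted p from 0.935 to 0.991 and none at an unadjusted p under 0.05.

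Ordered by group mean, the CR males were lowest for 7 of 8 members, Cd22 being lowest in CR females. The members vary together, so these orders are not separate results, and their share over all features was not computed. Control females were highest for 5 members (Cd79b, Cd22, Blk, Plcg2 and Cr2), control males for 2 (Cd72 and Btk) and CR females for 1 (Blnk). Of the 24 neighbouring means in these orders, 3 differed by more than the larger of the 2 SDs, each time the step from CR females down to CR males, for Cd79b, Cd72 and Blk. The range from the highest to the lowest group mean was 0.29 for Blnk and 0.80 for Cd79b.

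The members varied together from pup to pup. After group means were removed, the 28 pairs of members had Pearson's r from 0.14 to 0.91 over the 23 arrays, with a median of 0.67, and 19 pairs were above 0.5. The closest pair was Cd79b and Blk (r of 0.91, Spearman's rho of 0.89), followed by Cd79b and Plcg2 (0.88) and by Blk and Plcg2 (0.88). Cd22 and Cr2 stood apart. With each other they had an r of 0.69, but with the other 6 members their 12 values ran from 0.14 to 0.62, whereas the 15 pairs among Cd79b, Blk, Plcg2, Cd72, Btk and Blnk ran from 0.65 to 0.91. With slide means removed too, these ranges were 0.28 to 0.75 and 0.72 to 0.93. Their probes were read at median Cy5 intensities of 231 and 137, those of the other 6 at 370 to 6256, which is a probe's brightness and no gene's level; the part of brightness in this split was not tested. This split was seen in the values and has no test, and the pairs share the arrays, their normalization and the pool.

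**Figure D3:**
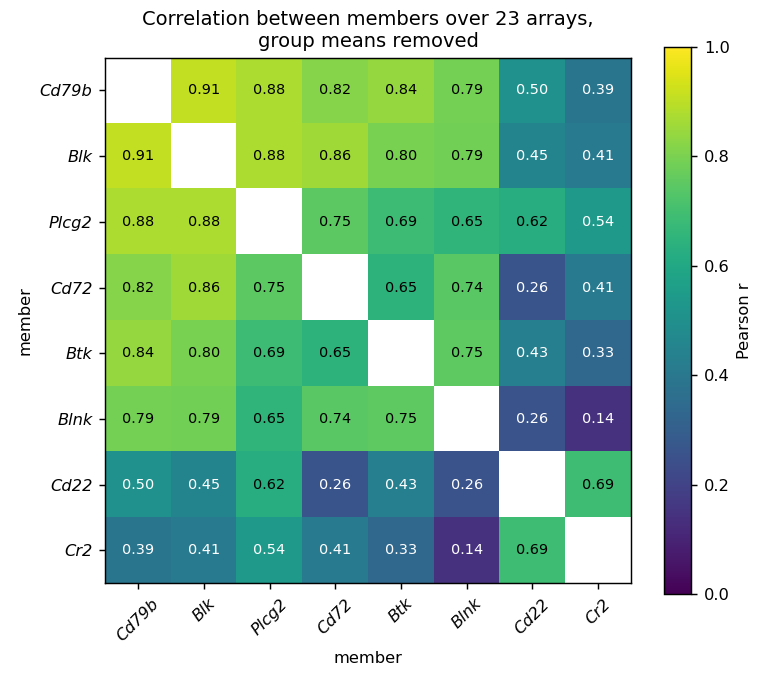
Pearson's r between each pair of members (both axes) over the 23 arrays after group means were removed; colour and number give r. Cd22 and Cr2, at the lower right, have an r of 0.69 with each other and at most 0.62 with the other 6 members.

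The pups at the extremes were shared by most members. The mean log2 ratio of the 8 members was highest in control female replicate 6 (0.77) and control male replicate 4 (0.63), and lowest in CR male replicate 5 (-0.54), CR male replicate 1 (-0.28) and CR male replicate 4 (-0.24). CR male replicates 2 and 3, at 0.049 and 0.11, lay among the control males, which ran from -0.052 to 0.63. Control females ran from 0.013 to 0.77 and CR females from -0.19 to 0.35.

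Other genes of the pathway, which act in several leukocytes, were measured for 38 of 45 listed. None passed the test (the smallest adjusted p for the sex average was 0.588). In CR males 29 of 38 were lower (52.7% of all features), 6 at an unadjusted p under 0.05 (4.07%), with 1 higher at that p (3.12%). In CR females 31 of 38 were lower (48.4% of all features), 7 at that p (2.66%), with none higher at it (1.99%). Their median difference was -0.099 in males and -0.14 in females, nearer to 0 than the members' median in both sexes. Upstream, Cd81, a membrane protein of the coreceptor complex, had a difference of -0.12 ± 0.067 for the sex average. The receptor's first kinases gave -0.26 ± 0.12 for Lyn and -0.47 ± 0.14 for Syk. Downstream, Prkcb, the protein kinase C that leads to NF-kB, had -0.25 ± 0.081. The inhibitors were on the same side of 0: Fcgr2b, the inhibitory Fc receptor, had -0.35 ± 0.10, and Ptpn6, the phosphatase that CD22 and CD72 recruit, had -0.28 ± 0.10. For the sex average 29 of the 38 were lower (49.1% of all features), 14 at an unadjusted p under 0.05 (4.86%). The other 9 were higher, 1 at that p (2.48% of all features). Of those on the higher side 3 were picked out after their values were seen: Vav3, a guanine nucleotide exchange factor (0.14 ± 0.060, unadjusted p = 0.0289, adjusted p = 0.633, limma), Pik3r1, a regulatory subunit of PI3 kinase (0.26 ± 0.17), and Nfatc3, a transcription factor that calcium signals activate (0.23 ± 0.12, and 0.47 in males with an unadjusted p of 0.0162 and an adjusted p of 0.649).

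Of 26 other B cell genes 16 were measured, of which 12 were lower in CR males, 14 in CR females and 16 for the sex average. Over all features these shares were 52.7%, 48.4% and 49.1%. An unadjusted p under 0.05 was reached by 6, 7 and 9 of them, all lower, and none was called. Of all features 4.07%, 2.66% and 4.86% were lower at that p. Among the smallest p values were those of Ms4a1, which encodes CD20 (-0.52 ± 0.13 for the sex average), the IgM receptor Fcmr (-0.43 ± 0.12) and Cd40, the receptor of T cell help (-0.43 ± 0.13), with adjusted p = 0.498 for Ms4a1 and 0.588 for both of the others. Each member was set against the mean of these genes over the 23 arrays, with group means removed, in a family of 24 relations that also covered T cell and monocyte markers and was planned after values had been seen. All 8 members followed the other B cell genes, from r of 0.50 (rho 0.57) for Cr2 to r of 0.94 (rho 0.96) for Cd79b, with adjusted permutation p of 0.0472 and 6.0e-05 for r (100000 permutations within groups, two-sided) and 0.0211 and 9.6e-05 for rho. The value for Cd79b is the adjusted form of the smallest p the permutations can give, 1.0e-05. The members vary together, so these 8 relations are not separate results, and their share over all features was not computed. Without the 2 arrays farthest from the median of the other B cell genes, r was 0.64 for Cr2 and 0.90 for Cd79b, and with slide means removed it was 0.64 and 0.97.

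The T cell markers ran the other way. Cd79b had an r of -0.75 (rho -0.65) with their mean, with adjusted permutation p of 0.000823 for r and 0.00675 for rho, and -0.67 without the 2 farthest arrays. For 6 of 8 members the adjusted permutation p for r was under 0.05, the exceptions being Cd22 (r -0.19, rho -0.014, adjusted permutation p = 0.536 and 0.967) and Cr2 (r -0.22, rho -0.19, adjusted permutation p = 0.536 and 0.615). For Blnk and Plcg2 the adjusted permutation p for rho was 0.0568 and 0.0637. Here too the members are not separate results, and the share over all features was not computed. For the mean of the monocyte markers the members' r ran from -0.34 (Cr2) to 0.14 (Cd22), with adjusted permutation p from 0.322 to 0.793. Ratios on 1 array are relative to all its probes.

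**Figure D4:**
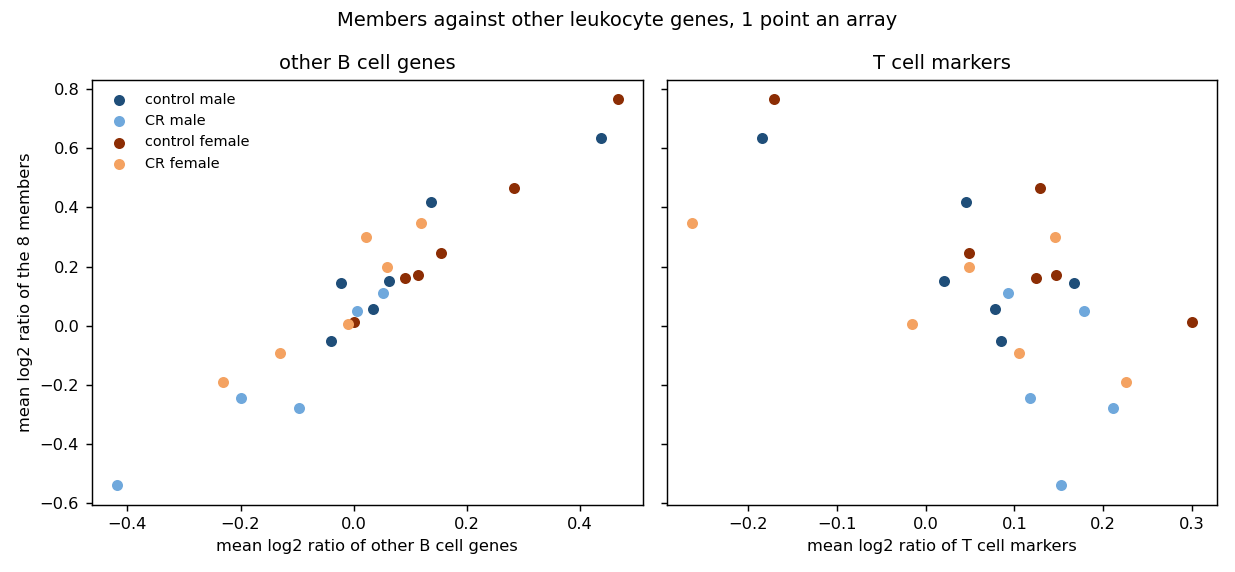
Mean log2 ratio of the 8 members (vertical axis) against the mean of 16 other B cell genes and of 16 T cell markers (horizontal axes), 1 point an array, coloured by group. The members follow the other B cell genes from CR male replicate 5 (-0.54) to control female replicate 6 (0.77) and run against the T cell markers.

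Within each array, the mean of the other B cell genes was subtracted from the members' mean. This score averaged 0.12 ± 0.11 (SD, n = 6) in control males and -0.048 ± 0.10 (n = 5) in CR males. In control females it was 0.12 ± 0.10 (n = 6) and in CR females 0.12 ± 0.11 (n = 6). Because the ratios do not compare levels of genes, its sign has no meaning and only shifts between groups are read. In CR males the score ran from -0.18 to 0.060 and in control males from -0.011 to 0.28, so that the groups overlapped. Over the arrays the members' mean ran from -0.54 to 0.77 and that of the other B cell genes from -0.42 to 0.47. With these unequal spreads, a shift of the score need not be particular to the members. This score was made after the values were seen, and no test was made of it.

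Markers of other cell types also lay mostly on 1 side of 0 in CR males. Of all features 52.7% were lower in CR males and 48.4% in CR females. In CR males 3 natural killer, 2 T cell and 1 neutrophil marker were higher at an unadjusted p under 0.05 (3.12% of all features). No monocyte, red cell or platelet marker reached that p in males. In CR females 1 natural killer marker was higher at it (1.99%), and 1 monocyte and 1 neutrophil marker were lower (2.66%). Of the natural killer cell markers 10 of 11 were higher in CR males, with a mean over the list from -0.037 to 0.23 in CR males and -0.55 to 0.026 in control males, and 6 of 11 were higher in CR females. The leading ones for the sex average were Klrd1 (0.65 in males, -0.012 in females), Klrb1a (0.43 and 0.075), Gzmk (0.47 and 0.26) and Ncr1 (0.0048 and 0.17). Of the T cell markers 11 of 16 were higher in CR males and 5 of 16 in CR females; the mean of the list ran from 0.092 to 0.21 in CR males and from -0.18 to 0.17 in control males, and among its leading genes were Cd3d (0.22 and 0.0011), Tcf7 (0.68 and -0.11) and Cd4 (-0.086 and -0.18). Monocyte markers were higher for 12 of 13 in CR males and lower for 11 of 13 in CR females. Those of smallest p for the sex average were Cd14 (-0.23 and -0.31), Csf1r (0.034 and -0.50), Ctss (0.030 and -0.19) and Vcan (0.0067 and -0.15). Of the 13, Cd14 was the 1 that was lower in CR males. The red cell markers were higher for 8 of 8 in CR males and lower for 8 of 8 in CR females, and the list's mean spread from -1.94 to 1.95 over all arrays, its leading genes being Hemgn (0.66 and -0.10), Alas2 (1.01 and -0.35), Hbb (1.09 and -0.27) and Gata1 (0.41 and -0.14). Neutrophil markers were higher for 7 of 7 in CR males and 6 of 7 in CR females, with S100a9 (0.70 and 0.43), S100a8 (0.56 and 0.46), Camp (0.33 and 0.55) and Ngp (0.13 and 0.097) in front. Platelet markers were lower for 5 of 6 in CR males and 6 of 6 in CR females, among them Pf4 (-0.15 and -0.75), Gp1bb (-0.11 and -0.64), Treml1 (-0.073 and -0.70) and Gp9 (-0.14 and -0.31). None of these genes was called, and the part of these cells in the members' differences was not tested.

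Genes of other B cell stages were fewer. Precursor markers were measured for 5 of 7, with a median difference of -0.085 in males and 0.15 in females, and its leading genes were Rag1 (0.18 and 0.15), Cd93 (-0.17 and 0.034), Dntt (0.10 and 0.055) and Rag2 (-0.085 and 0.24). Plasma cell markers were measured for 6 of 9, with medians of -0.015 and -0.038; Sdc1 stood at -0.30 and -0.083, Mzb1 at -0.44 and 0.047, Irf4 at -0.049 and 0.15 and Tnfrsf17 at 0.15 and -0.039. The only immunoglobulin gene measured under its listed name was Jchain, the joining chain of secreted antibody (0.019 in males, -0.11 in females, adjusted p = 0.990 and 0.995).

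Over all named genes, the 10 whose pattern over the 23 arrays, group means removed, was most like the members' mean were Cyb561a3 (r of 0.90), Mzb1, a chaperone of antibody secretion (0.90), Apaf1 (0.86), Eaf2 (0.86), Serinc5 (0.86), Atp6v1g3 (0.85), Syk (0.85), Pigv (0.84), Siglec5 (0.84) and Tp53i11 (0.83). For Cyb561a3 the CR minus control difference was -0.53 in males and -0.44 in females, and for Mzb1 it was -0.44 and 0.047. The 5 most opposed were Prpmp5 (-0.84), Podnl1 (-0.80), Nkx2-2 (-0.79), Pomc (-0.76) and Icos, a costimulatory receptor of T cells (-0.76). An r above 0.5 with the members' mean was found for 6.03% of all features, with a median of 0.012 over all of them.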

How the data were processed

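PBMC RNA of 23 pups was hybridised in Cy5 against a Cy3 pool of all samples on Agilent arrays. Scans were read by Agilent Feature Extraction (version 10.5.1.1, per the submitters' processing notes). The scanner files, as deposited, hold spot intensity per channel, with a log10 ratio after the software's own background and dye correction and other columns of flags, as their headers show. A second deposited file gives log2 levels close to those of Cy5 (Pearson's r of 0.973 to 0.998 by array, column median 7.23); how the authors normalized and centred it is not given in the sources used here, and it served as an alternative. Intensities were background-corrected with normexp (offset 50) and loess-normalized in limma 3.58.1 (R 4.3.3). Spots flagged as outliers (127 to 427 an array) were left out and spots of a probe averaged. Probes well above background in Cy5 on at least 50% of the arrays of a group were kept (23693 of 41012), and the brightest kept probe stood for a gene, giving 20739 features, 10078 with a symbol.

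Symbols other than the members' came from RefSeq's rat table (GRCr8), by accession for 11150 probes and by name for 8553; 124 kept the scanner files' name and 21185 had none. Probe positions come from the array design (rn4). Group means were fitted with limma's lmFit and eBayes over all 23 arrays, with Benjamini-Hochberg adjustment over all features and calls at an adjusted p under 0.05. The script was tested on simulated data. Alternatives covered scaling, filters, probes, blocks, weights and single arrays. Deviations of same-numbered arrays of 2 groups had r from -0.41 to 0.46 (33 pairs, median 0.089, 15 over 0.1). These values cannot decide whether a number pairs samples, and the main fit used no pairing. In females the control and CR arrays of the same number shared a slide. Slide numbers came from barcodes. The members and lists were chosen with earlier results of these data known. Named genes are all members, the 10 most and 5 least like their mean, the genes of smallest p of the other lists (at most 4 a list) and Cd81, Lyn, Syk, Ptpn6, Fcgr2b and Ms4a1. Of these, 2 genes are not reported here. No protein sequence was used here.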

Additional observations from a re-analysis of the deposited data

Results flagged for a closer look

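The second probe of Cr2, A_44_P508573, had 1 array far from the others of its group: CR female replicate 3 was at -0.63, while the other 5 CR females lay closer together, and its gap to the nearest of them was 0.646 of the group's whole range. This was 1 of 40 groups of values examined for such a gap (8 members, the second Cr2 probe and the CD79A-like probe, in 4 groups each), where chance alone gives about 1 in 20. The probe used for Cr2 had no such array.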

How the results depend on the processing

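No member was called under any of 14 alternatives or with any single array left out, and of 696 recomputed values of the 24 diet differences (8 members in males, in females and for the sex average) 687 kept their sign. The 9 diet differences that turned were all in females: Cd72 without control female replicate 6 (0.039); Blnk with array quality weights (-0.054), and from -0.041 to -0.012 without control female replicate 1 or 3 or CR female replicate 4 or 6 (-0.0116, -0.0354, -0.0125 and -0.0406); Btk under scale normalization (-0.062), with quality weights (-0.12) and without control female replicate 1 (-0.050). With 1 array of the sex left out, the female differences ran from -0.19 to 0.039 for Cd72, -0.041 to 0.17 for Blnk and -0.050 to 0.15 for Btk. The count of members lower at an unadjusted p under 0.05 in males was 3 to 6 with 1 array left out. It was 7 in males with median centring (30.5% of all features). In females it was 2 to 4 with 1 array left out and 5 with quality weights (4.47% of all features, against 2.66% in the main fit). For the sex average it was 6 with any array left out and 7 with quality weights (6.38% of all features). Between the sexes 7 members in place of 8 were lower without any 1 of 6 arrays. The count at that p between the sexes was 3, but 1 with the scanner software's ratio, scale normalization, the deposited table, the slide block, the replicate block and without the 2 arrays that stand apart (an alternative chosen after seeing the data), and 0 with Cy5 alone. With the replicate number as a block the diet counts were 5 in males, 3 in females and 6 for the sex average, as without it. Of all features 4.26%, 3.07% and 5.19% were lower at that p under this block. Of the member counts the block moved that between the sexes alone. The cause of these moves was not tested. The smallest adjusted p of any member was 0.053, for Plcg2 in the sex average without CR male replicate 2. The number of arrays, with litters unknown, limits all of these values.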
